A study of Mus musculus with 10 samples.

Results

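The expression of 10 genes that p53 is known to switch on was followed in mouse livers whose hepatocytes had been targeted at Bap1 or not, and which had then been injured with carbon tetrachloride (CCl4) or not. The genes were Cdkn1a, Mdm2, Ccng1, Bax, Phlda3, Trp53inp1, Bbc3, Btg2, Eda2r and Zmat3. They were taken by symbol from the 55291 genes of the bulk RNA-seq count table, and each symbol had its own row. All 10 passed the filter on low counts, which left 17015 genes for testing. The livers came from 10 female mice aged 16 to 20 weeks, all carrying a Cas9 gene behind a Lox-Stop-Lox cassette. An AAV8 vector brought an sgRNA and a Cre driven by TBG, a promoter active in hepatocytes. The design is meant to target hepatocytes and to leave Bap1 in other liver cells, which bulk counts cannot show. The study reported only partial editing of the Bap1 site in liver tissue. The sgRNA was a non-targeting control (NTC) or directed against Bap1 (sgBap1). After 10 days the mice received CCl4 (1 part in 9 parts of olive oil, 10 µL per g of body weight, intraperitoneally) or the oil vehicle (Veh), and livers were taken 48 hours later. The groups were NTC-Veh (n = 2), sgBap1-Veh (n = 2), NTC-CCl4 (n = 3) and sgBap1-CCl4 (n = 3). The question put to the data was whether the remaining 8 genes follow Cdkn1a and Mdm2 across the 4 groups.

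The transcription factor p53 is kept low by MDM2, a ubiquitin ligase that marks it for destruction. Damage or other stress frees p53, which then binds DNA and raises genes that halt the cell cycle, repair damage, kill the cell or restrain p53 itself. In liver, p53 targets respond to toxic injury and to the regrowth that follows it. BAP1 is a deubiquitinase and tumor suppressor that acts on chromatin. CCl4 is turned into a toxic radical by enzymes of the hepatocytes around the central veins.

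The p53 response element consists of a pair of decamers, each matching the p53 decamer consensus, which reads the same on both strands. It was searched for in RefSeq promoter windows of GRCm38.p6, from 250 bases before to 50 bases after each transcription start. The table held 11 windows for 8 of the 10 genes. Trp53inp1 and Zmat3 were not in it. A perfect decamer was present in 4 of these 8 genes (Cdkn1a, Mdm2, Ccng1 and Bax), against 9.55% of the 27025 genes of the table. A pair of decamers with at most 1 mismatch in all and at most 13 bases between them was present in 3 of the 8 (Cdkn1a, Ccng1 and Bax), against 1.24% of all genes. The genes were chosen as known p53 targets, so these matches are a description of them. The stretches are shown because they carry the feature by which the genes are grouped, with the matched decamers in capitals, 5′ to 3′ on the strand of the gene.
Cdkn1a, chr17:29090886-29090957, + strand: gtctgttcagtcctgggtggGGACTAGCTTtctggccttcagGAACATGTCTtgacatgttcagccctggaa
Ccng1, chr11:40755442-40755501, − strand: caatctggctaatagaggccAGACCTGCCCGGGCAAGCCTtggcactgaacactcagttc
Bax, chr7:45467070-45467130, − strand: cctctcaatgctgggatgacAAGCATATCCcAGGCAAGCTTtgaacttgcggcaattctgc
Mdm2, chr10:117710915-117710964, − strand: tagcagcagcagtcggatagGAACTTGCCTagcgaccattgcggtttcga

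The Cdkn1a stretch lies before the upstream of 2 annotated starts, and its second decamer begins 2841 bases before the downstream start. That decamer is followed directly by another 10 bases with 1 mismatch to the consensus, which are left in lower case. In Mdm2 a single decamer was found, and the best pair in that window had 4 mismatches. The well-known p53 sites of Mdm2 lie in its first intron, outside the window searched. The windows of Btg2, Phlda3, Bbc3 and Eda2r held no perfect decamer, which says only that these letters are not in the windows searched.

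In GENCODE vM21 (GRCm38) Cdkn1a spans 29090976 to 29100727 of chromosome 17, Mdm2 117688875 to 117710758 of chromosome 10, Ccng1 40748552 to 40755311 of chromosome 11, Bax 45461697 to 45466898 of chromosome 7, and Bbc3 16308393 to 16318205 of the same chromosome. Phlda3 spans 135766119 to 135769136 and Btg2 134075170 to 134079120 of chromosome 1, Trp53inp1 11156431 to 11174379 of chromosome 4, Zmat3 32334792 to 32366014 of chromosome 3, and Eda2r 97333840 to 97377216 of chromosome X. All are protein-coding. Bax shares 8.51% of its 50-base stretches with Gm45808, which overlaps it on the same strand and reached at most 0.831 CPM in any liver. Cdkn1a shares 2.14% with other genes on the same strand, and 8.46% in reverse with AC167363.2, which overlaps it on the other strand, and with other genes such as Syt11 and Tmem214. The strand setting of the counting is not given in the sources used here.

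The libraries held 3.30e+07 to 5.22e+07 estimated counts. Levels are given in CPM, a gene's share of the library total after scaling by the trimmed mean of M values (TMM), and 3 counts correspond to 0.0511 to 0.112 CPM. The lowest count of any of the 10 genes in a library was 74, for Bbc3. With vehicle, Bap1 itself stood at 34.8 and 34.8 CPM in NTC and 17.5 and 19.5 CPM in sgBap1 livers, and with CCl4 at 29.5 to 31.5 and 17.0 to 21.8 CPM, so every sgBap1 liver was below every NTC liver. Its log2 difference was -0.91 (SE 0.12) with vehicle and -0.65 (SE 0.10) with CCl4 (edgeR quasi-likelihood test, adjusted p = 0.0208 and 0.0295). The summed level of 8 hepatocyte markers was between 71118 and 157403 CPM in every liver, as the tissue label has it. The library of sgBap1-CCl4 replicate 2 stood apart in adipocyte genes, with Adipoq at 36.4 and Plin1 at 34.5 CPM against at most 0.0425 and 0.0188 CPM elsewhere. It also had the highest summed level of 6 stellate cell markers, 1421 CPM against 486 to 662 in the other CCl4 livers, and the lowest of the hepatocyte markers, 71118 CPM against 78578 to 91496.

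Between 2 groups, a gene that passes is one whose adjusted p is under 0.05 in edgeR's quasi-likelihood test, fitted over all 17015 genes and all 10 livers. Because the tissue is bulk, fewer cells that use a gene and less RNA of it per cell cannot be told apart.

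The cell cycle inhibitor Cdkn1a (p21) had 46.5 and 21.9 CPM in the NTC-Veh livers and 10.4 and 16.5 CPM in the sgBap1-Veh livers. With CCl4 it had 83.6, 91.0 and 79.9 CPM in NTC and 114, 118 and 112 in sgBap1 livers. The 4 groups did not overlap, and the order from low to high was sgBap1-Veh, NTC-Veh, NTC-CCl4 and sgBap1-CCl4. The NTC-Veh mice differed from each other 2.13-fold. Mdm2, the ligase that restrains p53, had 50.8 and 46.2 CPM in NTC-Veh, 36.6 and 39.7 CPM in sgBap1-Veh, 64.0, 62.1 and 63.1 in NTC-CCl4, and 85.8, 82.8 and 75.8 in sgBap1-CCl4. It had the same order of groups as Cdkn1a, again with no overlap.

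Bax, which permeabilizes mitochondria in apoptosis, had 26.1 and 21.9 CPM in NTC-Veh, 18.9 and 20.2 CPM in sgBap1-Veh, 30.1, 35.6 and 29.1 in NTC-CCl4, and 36.0, 38.0 and 37.9 in sgBap1-CCl4. Zmat3, an RNA-binding protein, had 16.1 and 13.9 CPM in NTC-Veh, 10.3 and 12.1 CPM in sgBap1-Veh, between 19.2 and 21.0 in NTC-CCl4, and 24.0, 25.7 and 22.3 in sgBap1-CCl4. Both thus stood in the order of Cdkn1a and Mdm2, with neighbouring groups of Bax as close as 35.6 and 36.0 CPM. Btg2, an antiproliferative gene that also belongs to the fast responders to growth signals, had 19.0 and 15.0 CPM in the NTC-Veh livers and 15.5 and 8.42 CPM in the sgBap1-Veh livers. With CCl4 it had 40.1, 37.4 and 52.4 CPM in NTC and 68.3, 51.4 and 72.5 in sgBap1 livers. Its CCl4 livers were all above its vehicle livers, and the genotypes overlapped under both treatments.

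Eda2r, a receptor of the tumor necrosis factor receptor family, had 5.88 and 3.99 CPM in NTC-Veh, 3.53 and 2.84 CPM in sgBap1-Veh, 4.50, 6.48 and 6.32 in NTC-CCl4, and 9.21, 11.8 and 7.21 in sgBap1-CCl4. Trp53inp1, a stress-induced protein of the nucleus and of autophagy, had 138 and 172 CPM in NTC-Veh, 119 and 132 CPM in sgBap1-Veh, 132, 169 and 114 in NTC-CCl4, and 254, 224 and 246 in sgBap1-CCl4. In both genes the sgBap1-CCl4 livers were above all others, and the NTC livers with CCl4 overlapped those with vehicle. Phlda3, a repressor of Akt signalling, had 8.30 and 8.01 CPM in NTC-Veh, 2.34 and 4.68 CPM in sgBap1-Veh, 6.76, 10.4 and 5.67 in NTC-CCl4, and 8.99, 15.1 and 9.18 in sgBap1-CCl4. Here the sgBap1-Veh livers were the lowest of all, and the 2 CCl4 groups overlapped. Its value of 15.1 came from the library with the adipocyte genes, as did the 11.8 CPM of Eda2r. That library was the highest of its group in 6 of the 10 genes, and in 36.8% of all genes tested.

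Ccng1 and Bbc3 departed from this order. Ccng1 (cyclin G1), a partner of the p53-MDM2 loop, had 96.0 and 96.7 CPM in NTC-Veh, 67.0 and 81.2 CPM in sgBap1-Veh, 61.1, 57.5 and 56.9 in NTC-CCl4, and 65.8, 75.0 and 71.7 in sgBap1-CCl4. It was highest in the untargeted, uninjured livers, and lowest in NTC-CCl4. Bbc3 (Puma), a BH3-only trigger of apoptosis, had 5.01 and 8.20 CPM in NTC-Veh, 6.32 and 2.77 CPM in sgBap1-Veh, 3.94, 4.34 and 3.02 in NTC-CCl4, and 4.75, 4.16 and 4.02 in sgBap1-CCl4. Its vehicle livers spread more widely than its CCl4 livers, which all lay between 3.02 and 4.75 CPM.

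**Figure D1:**
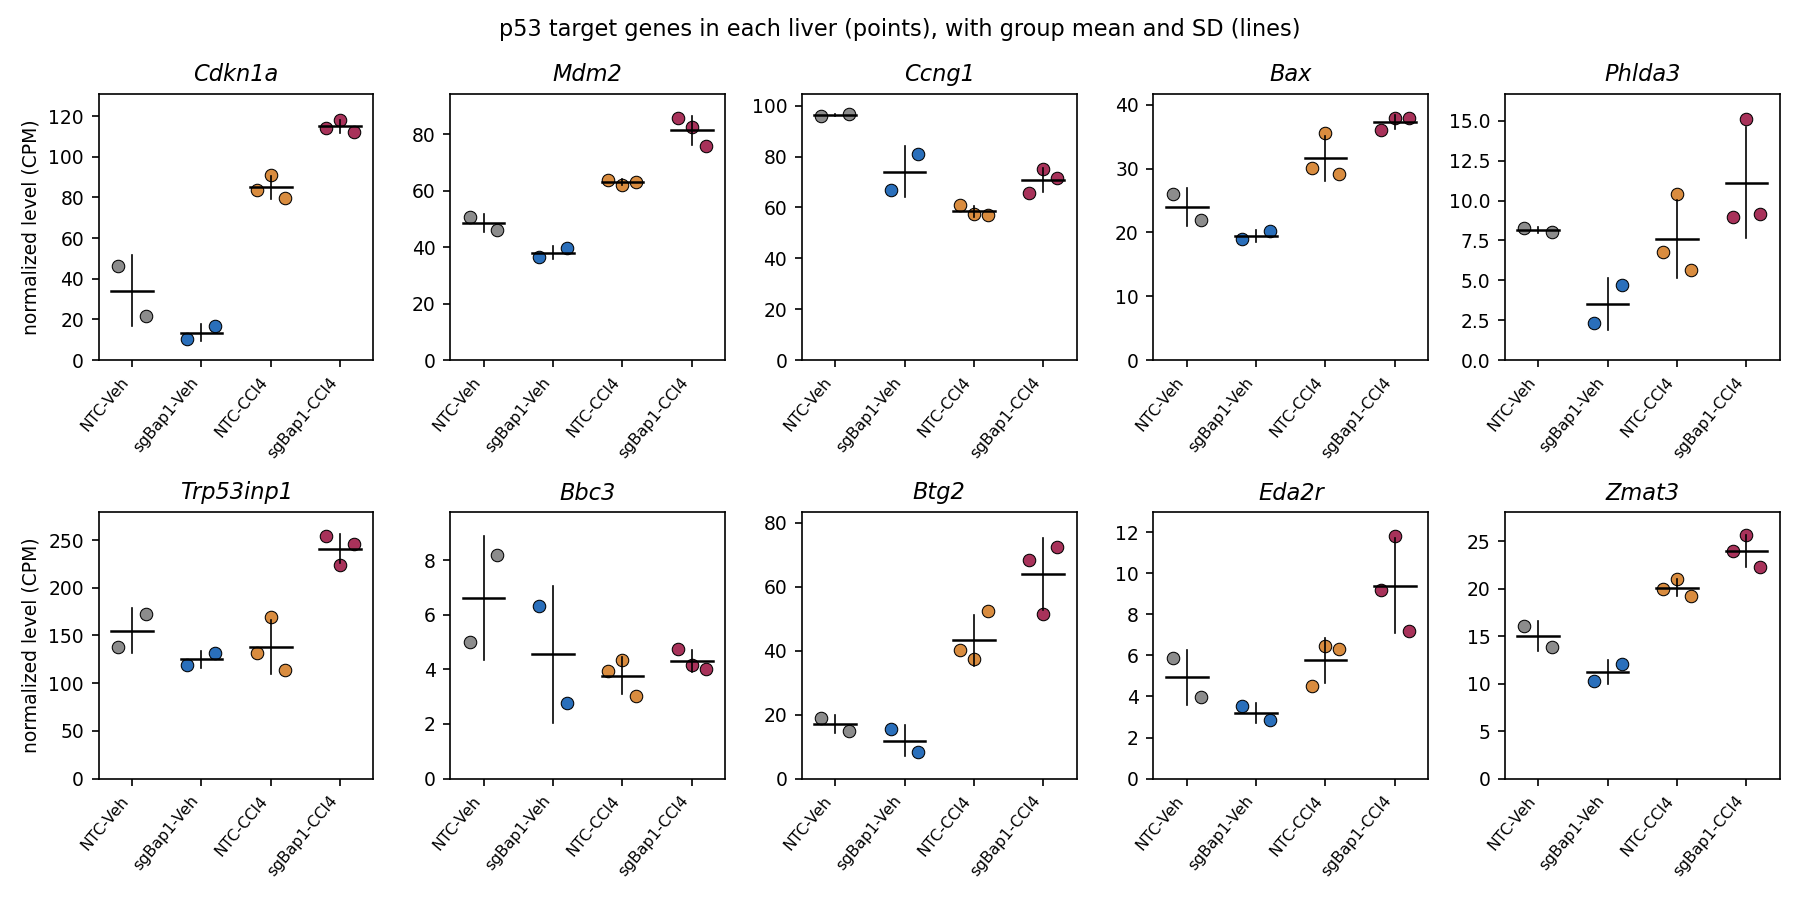
Level in CPM (TMM-scaled, linear axes from 0) of each of the 10 p53 target genes in each of the 10 livers, with points for livers, horizontal lines for group means and vertical lines for ± 1 SD (n = 2, 2, 3 and 3). Cdkn1a, Mdm2, Bax and Zmat3 share 1 order of groups, while Ccng1 is highest in NTC-Veh (96.0 and 96.7 CPM).

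Levels of different genes were compared per kilobase of annotated exons. In NTC-Veh, Ccng1 was the most abundant at 27.4 CPM per kb, followed by Trp53inp1 at 24.0, Bax at 15.2, Cdkn1a at 9.63 ± 4.90 and Mdm2 at 9.54 ± 0.641 (mean ± SD, n = 2), of which the last 2 did not differ beyond their spread. In sgBap1-CCl4 the order was Trp53inp1 at 37.3, Cdkn1a at 32.2, Bax at 23.7, Btg2 at 23.4, and Ccng1 at 20.2 CPM per kb (n = 3). In this order Btg2, with a spread of 18.7 to 26.4 CPM per kb, did not differ from its neighbours Bax (22.8 to 24.1) and Ccng1 (18.7 to 21.4) beyond the spread. Cdkn1a, which was below Ccng1, Trp53inp1 and Bax in NTC-Veh, was thus above Bax and Ccng1 here. Phlda3, Bbc3, Zmat3 and Eda2r were the 4 lowest in both groups, at 0.838 to 5.23 CPM per kb in NTC-Veh and 1.60 to 7.12 in sgBap1-CCl4.

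CCl4 in livers with intact Bap1 raised 5 of the 10 genes and lowered 1. Over all genes tested, 27.4% rose and 26.6% fell in this comparison, so that passing in either direction, as 6 of the 10 did, was common among all genes. On the log2 scale Btg2 rose by 1.35 (SE 0.27, adjusted p = 0.00254) and Cdkn1a by 1.31 (SE 0.29, adjusted p = 0.00485). Smaller rises were found for Zmat3 (0.42, SE 0.11, adjusted p = 0.00886), Bax (0.40, SE 0.11, adjusted p = 0.0111) and Mdm2 (0.38, SE 0.09, adjusted p = 0.00376). Ccng1 fell by 0.72 on the log2 scale (SE 0.10, adjusted p = 0.000145). The others did not pass, with log2 fold changes of 0.22 for Eda2r, -0.10 for Phlda3, -0.17 for Trp53inp1 and -0.80 for Bbc3 (adjusted p = 0.488, 0.830, 0.414 and 0.0529). The rise of Cdkn1a was 1.95 without NTC-Veh replicate 1 and 0.87 without NTC-Veh replicate 2, and passed in both cases. The calls of Bax and Zmat3 rested on NTC-Veh replicate 2, without which their adjusted p was 0.118 and 0.0906. With scaling by library size alone the median of all genes moved to 0.50, Phlda3 and Trp53inp1 turned to 0.38 and 0.30, and Ccng1 stood at -0.25 (adjusted p = 0.0829).

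In sgBap1 livers CCl4 raised 8 of the 10 genes and lowered 0, where 29.0% of all genes rose and 28.0% fell. The median log2 fold change of the 10 genes was 1.10, against 0.04 over all genes tested. Cdkn1a rose by 3.10 on the log2 scale (SE 0.32, adjusted p = 5.83e-05), Btg2 by 2.41 (SE 0.29, adjusted p = 0.000107), Phlda3 by 1.69 (SE 0.38, adjusted p = 0.00408) and Eda2r by 1.55 (SE 0.27, adjusted p = 0.000734). Mdm2 and Zmat3 each rose by 1.10 (SE 0.09 and 0.11, adjusted p = 5.45e-06 and 2.48e-05), Trp53inp1 by 0.94 (SE 0.17, adjusted p = 0.000766) and Bax by 0.93 (SE 0.11, adjusted p = 6.54e-05). Phlda3, Trp53inp1 and Eda2r thus passed in sgBap1 livers and not in NTC livers, and the test of that difference is given with the interaction. Ccng1 (-0.06, adjusted p = 0.598) and Bbc3 (-0.10, adjusted p = 0.806) did not pass, and library size alone turned them to 0.42 and 0.37, with the median of all genes at 0.52. There Ccng1 was a called rise (adjusted p = 0.00854), so that 9 of the 10 rose. The 8 genes that rose were also the 8 whose sgBap1-CCl4 livers all lay above both sgBap1-Veh livers, which held for 37.3% of all genes.

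**Figure D2:**
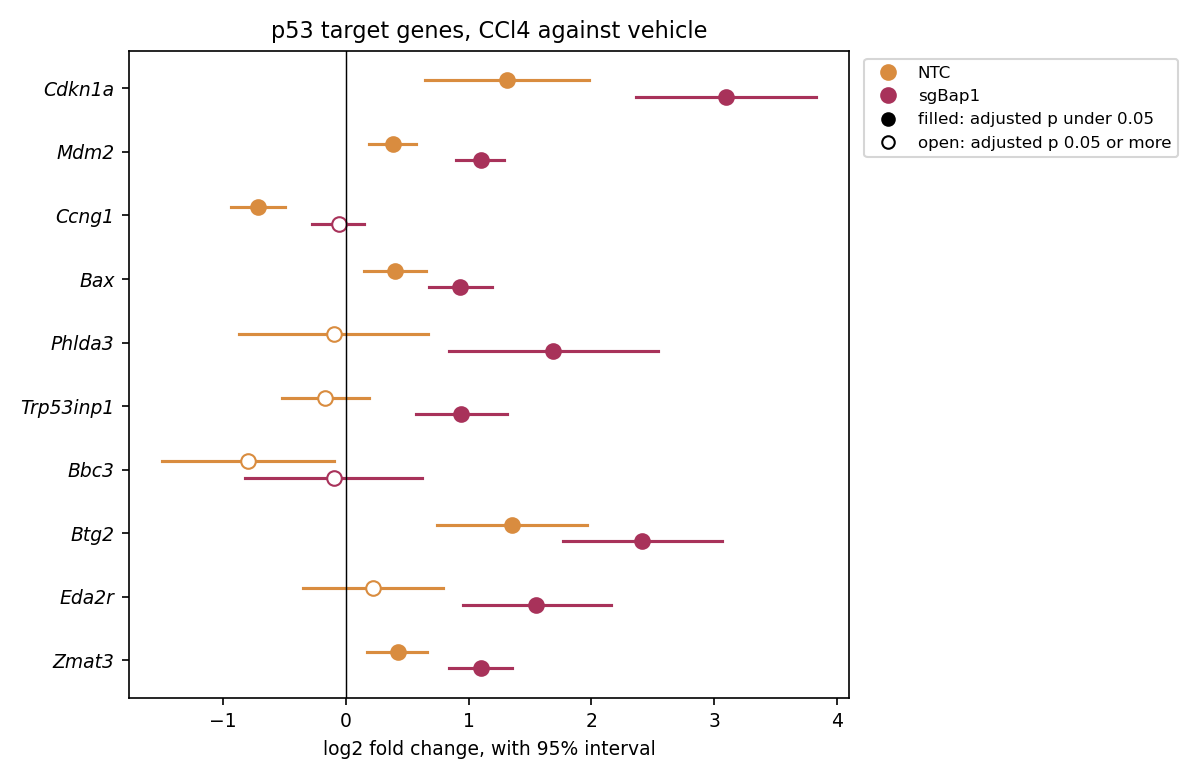
Log2 fold change of CCl4 against vehicle (x axis) for each of the 10 p53 target genes in NTC and in sgBap1 livers, with 95% intervals from the edgeR quasi-likelihood fit. Filled points have an adjusted p under 0.05, and every sgBap1 value lies to the right of the NTC value of its gene, as for Cdkn1a (3.10 against 1.31).

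In vehicle-treated livers all 10 genes were fitted lower with sgBap1 than with NTC, although 0 of 10 passed, with 0.406% of all genes passing. Fitted values below 0 made up 46.3% of all genes. The log2 differences were -1.35 for Cdkn1a (SE 0.32, adjusted p = 0.123), -1.24 for Phlda3 (SE 0.40, adjusted p = 0.242), -0.62 for Eda2r (SE 0.30, adjusted p = 0.435) and between -0.51 and -0.30 for the remaining 7, with a median of -0.46 over the 10 genes against 0.02 over all. Mdm2 differed by -0.35 (SE 0.09, adjusted p = 0.144). At an unadjusted p under 0.05 in the same edgeR quasi-likelihood test, 6 of the 10 were lower and 0 higher, where 5.25% and 7.09% of all genes were. DESeq2's Wald test called Cdkn1a, Mdm2 and Phlda3 lower (adjusted p = 0.000836, 0.0410 and 0.0431), with 1.09% of all genes called lower, and limma-voom called 0. Both sgBap1-Veh livers were below both NTC-Veh livers in 8 of the 10, all but Bbc3 and Btg2, which held for 19.2% of all genes. Without NTC-Veh replicate 1 the difference of Cdkn1a was -0.71. With each liver left out in turn all 10 differences stayed below 0, with a range of -1.26 to -0.06 for Bbc3 and -1.02 to -0.13 for Btg2, the widest relative to their values.

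Other cell types moved with this comparison. Of 8 macrophage markers 7 had both sgBap1-Veh livers above both NTC-Veh livers, as 21.7% of all genes did. In the edgeR test 1 passed (0.406% of all genes in either direction), and 7 in DESeq2's (2.74% of all genes called higher). The 8 macrophage markers summed to 177 to 259 CPM in the NTC and 355 to 497 CPM in the sgBap1 livers. The 8 lymphocyte markers summed to 14.1 to 23.4 and 36.3 to 38.9 CPM. Of these, 6 of 8 were higher in sgBap1 without overlap (21.7% of all genes). By each tool 1 passed as higher, against the same 0.406% and 2.74% of all genes. The 8 hepatocyte markers summed to 128576 to 157403 CPM in the NTC and 114354 to 119074 CPM in the sgBap1 livers, with 7 of 8 fitted lower, 5 of 8 lower without overlap (19.2% of all genes), and 0 passing (edgeR, 1 lower at an unadjusted p under 0.05, 0 by DESeq2). Their direction was that of the 10 genes. The part of these shifts in the lower levels of the 10 genes was not tested.

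After CCl4 the direction was the opposite: all 10 genes were fitted higher in sgBap1 than in NTC livers, where 50.4% of all genes were, and again 0 of 10 passed, with 0.329% of all genes passing. Trp53inp1 had the largest difference at 0.80 (SE 0.15, adjusted p = 0.0540), followed by Eda2r at 0.71 (SE 0.22, adjusted p = 0.194), Btg2 at 0.57, Phlda3 at 0.54 and Cdkn1a at 0.43 (adjusted p = 0.318, 0.453 and 0.477). Mdm2 differed by 0.37 (SE 0.08, adjusted p = 0.0787). The median of the 10 was 0.40, against 0.00 over all genes. At an unadjusted p under 0.05 in the edgeR test 7 of the 10 were higher and 0 lower, where 6.32% and 7.64% of all genes were. DESeq2's Wald test called Mdm2 and Trp53inp1 (adjusted p = 0.00116 and 5.06e-05), with 1.33% of all genes called higher, and limma-voom called 0. The 3 sgBap1-CCl4 livers were all above the 3 NTC-CCl4 livers in 7 of the 10, against 10.1% of all genes. The exceptions were Phlda3, Bbc3 and Btg2. Leaving out sgBap1-CCl4 replicate 2, the library with the adipocyte genes, gave 0.25 for Phlda3 (0.83 without NTC-CCl4 replicate 2), 0.51 for Eda2r and 0.85 for Trp53inp1.

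**Figure D3:**
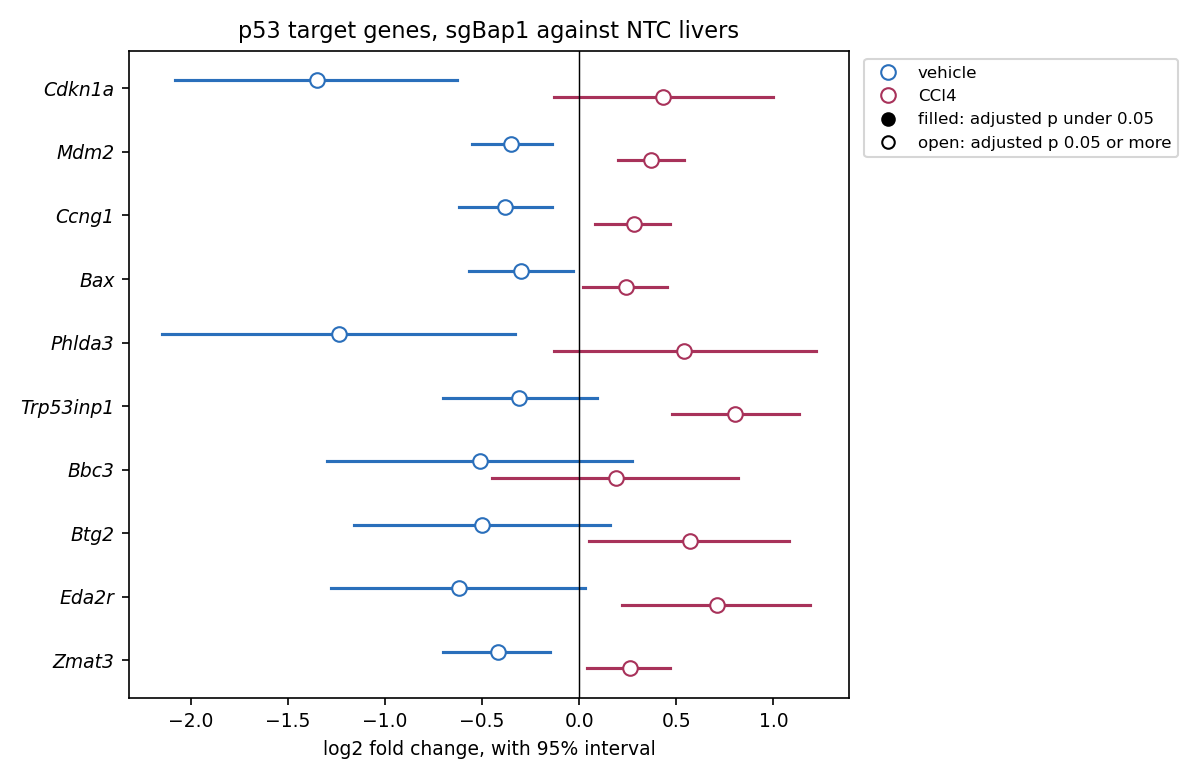
Log2 difference of sgBap1 against NTC livers (x axis) for each of the 10 p53 target genes with vehicle and with CCl4, with 95% intervals from the edgeR quasi-likelihood fit. All vehicle values lie below 0 and all CCl4 values above it, and the points are open because none had an adjusted p under 0.05.

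These 2 comparisons share no livers. Within each, however, all 10 genes were read from the same few livers, so counts of genes are not counts of separate observations. Lower in every sgBap1 liver with vehicle and higher in every sgBap1 liver with CCl4 were 7 of the 10 genes (Cdkn1a, Mdm2, Ccng1, Bax, Trp53inp1, Eda2r and Zmat3), against 1.30% of all genes tested, or 222 genes. With DESeq2 size factors and with library size alone the count was also 7, and it was 7 or 8 when any 1 liver was left out. The genotype differences kept these signs in all 10 genes under each of the 3 scalings. Several of the genes, Cdkn1a and Mdm2 among them, stand on an interaction list that the study drew from these same livers, so their pattern is not independent evidence of it.

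**Figure D4:**
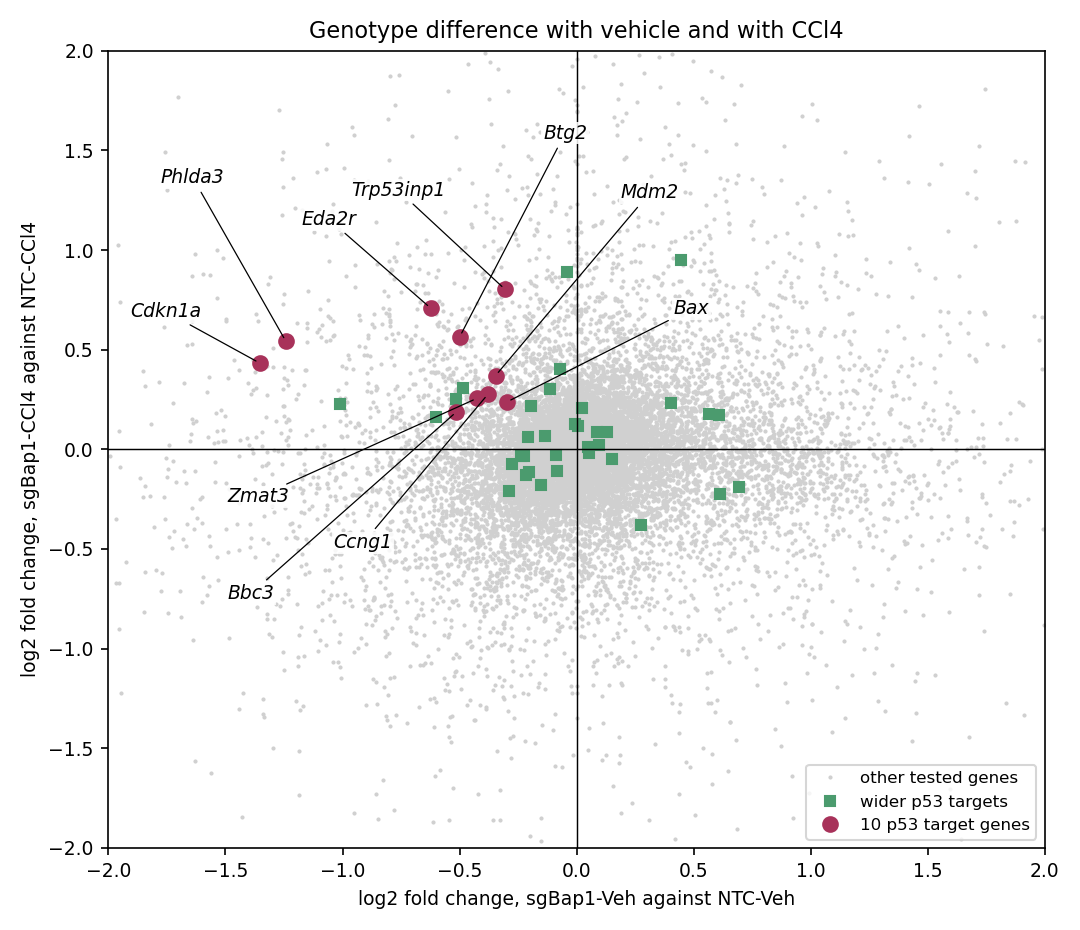
Log2 difference of sgBap1 against NTC livers with vehicle (x axis) and with CCl4 (y axis) for the 10 p53 target genes (red), 35 further p53 targets (green squares) and the other tested genes (grey), with 392 genes beyond the axis limits of ± 2 not drawn. All 10 genes lie to the upper left of the origin, lower with vehicle and higher with CCl4, while the further targets scatter around the origin with medians of -0.07 and 0.07.

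The interaction, which is the effect of CCl4 in sgBap1 livers less that in NTC livers, was above 0 in all 10 genes, as the opposite signs above entail, and in 47.6% of all genes. It was 1.79 for Cdkn1a (SE 0.41, adjusted p = 0.143; 1.15 without NTC-Veh replicate 1 and 2.23 without NTC-Veh replicate 2), 1.78 for Phlda3 (SE 0.50, adjusted p = 0.226), 1.33 for Eda2r (SE 0.37, adjusted p = 0.208), 1.11 for Trp53inp1 (SE 0.23, adjusted p = 0.104) and 0.72 for Mdm2 (SE 0.12, adjusted p = 0.0694). None of the 10 passed in edgeR's quasi-likelihood test, nor did any of the 17015 genes (0%), while 9 of the 10 had an unadjusted p under 0.05, all above 0, where 3.59% of all genes did with a value above 0 and 6.78% with a value below it. DESeq2's Wald test called 7 of the 10, with 0.743% of all genes called higher. These were Mdm2 (adjusted p = 6.61e-05), Cdkn1a (0.000746), Trp53inp1 (0.00121), Ccng1 (0.00549), Zmat3 (0.0179), Phlda3 (0.0187) and Eda2r (0.0345). Both counts, 9 and 7 of the 10, include Cdkn1a and Mdm2, the genes that set the question. The study had already named these among its interaction genes, using DESeq2 on the same livers, so their calls are no separate support. Limma-voom called 0.

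Of the remaining 8 genes, Bax and Zmat3 had the order of groups of Cdkn1a and Mdm2 with no overlap. A distance to Cdkn1a alone was also computed, which weighs the size of the changes as well as their direction. Against NTC-Veh, Cdkn1a stood at log2 differences of -1.35 in sgBap1-Veh, 1.31 in NTC-CCl4 and 1.74 in sgBap1-CCl4. Over these 3 values the root-mean-square distance to Cdkn1a was 0.504 for Btg2, 0.889 for Eda2r, 0.967 for Zmat3, 0.978 for Mdm2, 1.03 for Bax, 1.11 for Phlda3 and 1.22 for Trp53inp1. Ccng1 and Bbc3 were the farthest, at 1.81 and 1.89. Ranked among all genes tested, Btg2 was the 86th nearest, Mdm2 the 1414th and Bbc3 the 12291st. Mdm2, with the order of groups of Cdkn1a but smaller changes, thus stood farther away than Btg2 and Eda2r, whose groups partly overlapped. No distance to Mdm2 was computed. In the same 3 differences Mdm2 had -0.35, 0.38 and 0.75, Zmat3 -0.42, 0.42 and 0.67, and Bax -0.30, 0.40 and 0.64. The 3 differences share the 2 NTC-Veh livers, and the distances are a description over 4 groups.

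Counting genes whose mean was 100 counts or more, the 5 nearest to Cdkn1a were Myc (0.202), Serpina1e (0.264), Igfbp1 (0.270), Hspb1 (0.308) and Tnfrsf10b (0.309). The study had already named Myc beside Cdkn1a and Mdm2 in a cluster of interaction genes from these same livers. With vehicle, Myc, a growth regulator, had 14.3 and 5.76 CPM in NTC and 2.96 and 4.72 CPM in sgBap1 livers, and with CCl4 19.0 to 25.5 and 23.2 to 30.4 CPM, with NTC-Veh replicate 1 above replicate 2 as in Cdkn1a. Igfbp1, a secreted binder of insulin-like growth factors, had 135 and 137 CPM in NTC-Veh, 56.0 and 81.4 CPM in sgBap1-Veh, and 325 to 454 and 325 to 676 in the NTC and sgBap1 livers with CCl4. Serpina1e belongs to a family of near-identical copies, so its counts are uncertain. It had 607 and 285 CPM in NTC-Veh and 18.1 and 246 CPM in sgBap1-Veh, a wide spread within each group. Of the 5, only Tnfrsf10b, a death receptor, was on the list of further p53 targets. Without sgBap1-CCl4 replicate 2, 3 of these 5 genes were again among the nearest 5. The list is not given here with other livers left out, although the vehicle difference of Cdkn1a itself then ranged from -1.80 to -0.71.

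Further p53 targets did not move as 1 group. Of 36 such genes 35 could be tested. CCl4 raised 11 and lowered 15 of them in NTC livers, and raised 14 and lowered 12 in sgBap1 livers, where 27.4% and 26.6% of all genes rose and fell in the NTC and 29.0% and 28.0% in the sgBap1 livers. The medians were -0.08 and 0.04 (0.03 and 0.04 over all genes). Among those with a mean of at least 100 counts, the largest called changes in NTC livers were rises of Dram1, an autophagy gene (log2 2.53, SE 0.51), the BH3-only gene Pmaip1 (1.87, SE 0.27), the growth factor Kitl (1.79, SE 0.31) and the apoptosome core Apaf1 (1.62, SE 0.15), with adjusted p = 0.00244, 0.000230, 0.000803 and 1.51e-05. In sgBap1 livers they were, with the same limit, Tnfrsf10b (2.38, SE 0.21), Dram1 (2.14, SE 0.49), Apaf1 (1.62, SE 0.15) and Kitl (1.62, SE 0.30), with adjusted p = 8.27e-06, 0.00451, 1.41e-05 and 0.00123. Below that limit, with a mean of 78.8 counts, the kinase Ak1 rose more, by 2.96 (SE 0.72) in NTC and 3.47 (SE 0.65) in sgBap1 livers (adjusted p = 0.00595 and 0.00135), and it is named here after its values were seen. The NTC rise of Ak1 no longer passed without NTC-Veh replicate 1 (2.54, adjusted p = 0.0600).

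Between the genotypes 0 of these 35 passed with vehicle, with CCl4 or in the interaction in the edgeR test. At an unadjusted p under 0.05, 1 was higher and 5 lower with vehicle, 6 higher and 1 lower with CCl4, and 6 above and 2 below 0 in the interaction. Over all genes these shares were 7.09% and 5.25%, 6.32% and 7.64%, and 3.59% and 6.78%. DESeq2 called 4 lower with vehicle, 1 higher with CCl4 and 4 above 0 in the interaction, where it called 1.09%, 1.33% and 0.743% of all genes. The smallest p was that of Tnfrsf10b with vehicle (-1.01, SE 0.23, adjusted p = 0.0893), of Plk3, a stress kinase, with CCl4 (0.89, SE 0.23, adjusted p = 0.143), and of the DNA polymerase gene Polk in the interaction (0.77, SE 0.15, adjusted p = 0.0956). Polk had 11.8 and 11.3 CPM in NTC and 7.99 and 8.20 CPM in sgBap1 livers with vehicle, and 11.6 to 13.9 and 14.3 to 15.3 CPM with CCl4, so that its sgBap1 livers were below NTC with vehicle and above with CCl4. This held without overlap for 2 of the 35, Polk and Aen, against 1.30% of all genes tested. Aen, named because it met this pattern, had an interaction of 0.80 (SE 0.16, edgeR adjusted p = 0.104, DESeq2 adjusted p = 0.00476).

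The mRNA of p53 itself did not share the difference between genotypes. Trp53 had 23.1 and 20.9 CPM in NTC and 25.1 and 23.6 CPM in sgBap1 livers with vehicle, and 33.7 to 34.0 and 32.9 to 34.8 CPM with CCl4. It rose with CCl4 by 0.62 (SE 0.08, adjusted p = 0.000103) in NTC and 0.46 (SE 0.08, adjusted p = 0.000633) in sgBap1 livers. Between genotypes it differed by 0.15 with vehicle (95% interval -0.04 to 0.34, adjusted p = 0.559) and by -0.01 with CCl4 (95% interval -0.16 to 0.14, adjusted p = 0.969). Mdm4, which binds and inhibits p53, fell with CCl4 by 0.41 in NTC and by 0.36 in sgBap1 livers on the log2 scale (adjusted p = 0.00153 and 0.00315). The genotype difference of Mdm4 was -0.07 with vehicle (95% interval -0.26 to 0.13) and -0.02 with CCl4 (95% interval -0.18 to 0.14). Protein and its activity were not measured.

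Of 14 regulators of p53, 12 could be tested, and CCl4 raised 6 and lowered 1 in each genotype (27.4% and 26.6% of all genes in NTC, 29.0% and 28.0% in sgBap1 livers). The checkpoint kinase Chek1 rose by 3.99 (SE 0.36) in NTC and 3.03 (SE 0.33) in sgBap1 livers, and Chek2 by 1.5 (SE 0.19) and 1.25 (SE 0.18), with adjusted p = 1.25e-05, 3.34e-05, 9.04e-05 and 0.000243. Ppp1r13b, a p53-binding protein, rose by 0.62 in NTC and 0.56 in sgBap1 livers (adjusted p = 0.00830 and 0.0140), and Ppp1r13l, an inhibitory relative, by 0.61 and 0.93 (adjusted p = 0.0253 and 0.00321). Between genotypes 0 of the 12 passed in the edgeR test with vehicle, with CCl4 or in the interaction, as 0.406%, 0.329% and 0% of all genes did. At an unadjusted p under 0.05 in that test there were 0 with vehicle, 1 (Ppp1r13b, -0.38) with CCl4 and 0 in the interaction. The shares of all genes higher and lower were 7.09% and 5.25%, 6.32% and 7.64%, and 3.59% and 6.78%. DESeq2 called 0 of the 12 in each, and 562, 502 and 420 of all genes. Counts of 0 or 1 among 12 genes are near these shares.

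Genes of other programs moved beside the 10. A list of 10 early response genes such as Fos and Egr1 summed to 100.2 to 144 CPM in NTC and 107 to 109 CPM in sgBap1 livers with vehicle, and to 345 to 369 and 531 to 664 CPM with CCl4. All 10 of them lay higher in every sgBap1-CCl4 than in every NTC-CCl4 liver, as 10.1% of all genes did. Of them 1 passed in the edgeR test, where 0.329% of all genes passed in either direction. At an unadjusted p under 0.05 in that test 9 were higher (6.32% of all genes), and DESeq2 called 9 higher (1.33% of all genes). A further condition, lower in both sgBap1-Veh livers, was met by 3 of the 10 (1.30% of all genes meet both). A list of 10 cell cycle genes summed to 9.28 to 9.69 and 14.0 to 18.2 CPM with vehicle, and to 249 to 452 and 315 to 449 CPM with CCl4. With vehicle all 10 were fitted higher in sgBap1 livers, 8 of them without overlap (21.7% of all genes). Of these 10 genes 0 passed in the edgeR test with vehicle, and DESeq2 called 1 higher (2.74% of all genes). All 10 overlapped between the CCl4 groups, as 13563 of the 17015 genes tested did. Macrophage markers summed to 877 to 1235 CPM in the NTC and 838 to 1131 CPM in the sgBap1 livers with CCl4. Of these markers 8 of 8 overlapped, which is again what most genes tested did. The part of these programs in the levels of the p53 targets was not tested.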

How the data were processed

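Bulk RNA-seq of 10 mouse livers in 4 groups was analysed. The authors made stranded mRNA libraries with paired reads of 50 bases, aligned them to GRCm38 with STAR 2.7.6a and estimated gene counts with Salmon 1.4.0 on GENCODE vM25. The authors deposited these estimated counts (also called expected counts) per gene symbol, not normalized, and 9.22% of the values were not whole. After rounding, edgeR 4.0.16 was run in R 4.3.3 (filterByExpr, TMM, 1 model of the 4 groups, robust quasi-likelihood test, two-sided, Benjamini-Hochberg over the 17015 genes tested, threshold 0.05). TMM factors were 0.786 to 0.851 in the vehicle and 1.08 to 1.24 in the CCl4 libraries. The SE is the absolute log2 fold change divided by the square root of F. Depth was 3.30e+07 to 5.22e+07 counts. The p-values weigh a difference against the spread between mice, estimated over the 4 groups together and with information shared among genes. The study's own tool, DESeq2 (1.42.0), is an alternative here, as are limma-voom (limma 3.58.1), the older quasi-likelihood method, other scalings and filters, the replicate number as a block, only the 2 groups compared, and each liver left out. The code was tested on simulated data. The genes and lists were chosen with earlier results of these data known.

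Named genes were the 10 p53 targets, Bap1, Trp53, Mdm4, the 5 genes nearest to Cdkn1a, and, from the further targets and regulators, up to 4 genes per comparison with the largest change among those passing with a mean of at least 100 counts, or else the 1 with the smallest p. Positions and exon lengths come from GENCODE vM21, promoter sequences from RefSeq (GRCm38.p6). No batch is named in the sources used here. Lists used as context whose results are given only here were clock genes (12; 2 rose and 8 fell with CCl4 in NTC, 3 and 7 in sgBap1 livers), neutrophil (4 of 5 tested; 3 rose in each), stellate (6; 5 and 4 rose), endothelial (5; 2 rose in NTC, 2 rose and 2 fell in sgBap1 livers) and cholangiocyte markers (4; 1 rose in each). Over all genes 27.4% rose and 26.6% fell with CCl4 in NTC, and 29.0% and 28.0% in sgBap1 livers. Between genotypes 1 clock gene passed as higher in sgBap1 with vehicle and 1 with CCl4 (edgeR quasi-likelihood test, adjusted p = 0.0208 and 0.00287). Of all genes 0.406% and 0.329% passed. With vehicle 7 clock genes were higher and 4 lower in sgBap1 without overlap, against 21.7% and 19.2% of all genes. Of 5 adipocyte markers 0 could be tested.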

Additional observations from a re-analysis of the deposited data

Results flagged for a closer look

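Each of 7 genes had every sgBap1 liver below every NTC liver with vehicle and above every NTC liver with CCl4. The differences between these 2 effects, as log2 interaction values, were 1.79 for Cdkn1a, 1.33 for Eda2r, 1.11 for Trp53inp1, 0.72 for Mdm2, 0.68 for Zmat3, 0.66 for Ccng1 and 0.53 for Bax. The 7 were picked by this pattern in the same livers. Interaction values above 0 follow from that choice, and the counts below are no separate support. In edgeR's quasi-likelihood test of the interaction 0 of the 7 passed (adjusted p = 0.0694 to 0.227), as 0% of all genes did. All 7 had an unadjusted p under 0.05, against 3.59% of all genes with a value above 0. DESeq2's Wald test called 6 of them, all but Bax, against 0.743% of all genes called higher.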

How the results depend on the processing

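Over 50 values (10 genes in 5 comparisons) and all alternatives, 940 fits were made, of which 905 kept direction and side of the threshold, 3 lost and 22 gained the threshold, and 10 changed sign. DESeq2's Wald test called 3 of the 10 genes with vehicle, 2 with CCl4 between genotypes and 7 in the interaction, and 4, 1 and 4 of the further targets, in each case against 0. Between genotypes with CCl4 the count was 1 (Trp53inp1) with library size alone and without a filter, and 0 to 1 when a liver was left out (1 without NTC-CCl4 replicate 2). Library size alone called 11 regulators in sgBap1-CCl4 against sgBap1-Veh, in place of 7. For CCl4 in NTC livers 4 to 7 of the 10 genes passed with a liver left out, against 6. Signs changed with library size alone for Ccng1 (0.42) and Bbc3 (0.37) in sgBap1 livers and for Phlda3 (0.38) and Trp53inp1 (0.30) in NTC livers, where the median of all genes moved up by about as much. With a liver left out they changed, in sgBap1 livers, for Ccng1 (-0.19 to 0.08, highest without sgBap1-Veh replicate 2) and Bbc3 (-0.55 to 0.64, highest without sgBap1-Veh replicate 1), and, in NTC livers, for Phlda3 (-0.39 to 0.07, highest without NTC-CCl4 replicate 3), Trp53inp1 (-0.34 to 0.00, highest without NTC-Veh replicate 2) and Eda2r (-0.03 to 0.53, lowest without NTC-Veh replicate 2), none of which passed in the fit with all livers. Bbc3 passed in NTC livers with DESeq2 size factors, with only the 2 groups compared, in 3 of the fits with a liver left out, and in DESeq2's test (adjusted p = 0.0300). The nearest genes to Cdkn1a were shared in 3 of 5 without sgBap1-CCl4 replicate 2. Over all genes, calls with vehicle were 69, and 32 with library size alone, 1 with the replicate block, 562 with DESeq2, 26 with limma-voom, 27 with only the 2 groups compared and 0 to 150 with a liver left out. Between genotypes with CCl4 they were 56, and 94 without a filter, 24 with the replicate block, 502 with DESeq2, 28 with only the 2 groups compared and 1 to 71 with a liver left out. In the interaction they were 0, and 2 with library size alone, 34 without a filter, 420 with DESeq2 and 0 to 7 with a liver left out. Library size alone put 80.5% and 78.3% of the calls for CCl4 on the higher side in NTC and sgBap1 livers, against 50.8% and 50.9%. The replicate number was tried as a block, although same-numbered livers did not deviate together (correlations -0.149 to 0.102), and it turned Bbc3 in sgBap1 livers to 0.01. The cause of these changes was not tested. With 2 livers per vehicle group, exact tests cannot go below p = 0.333.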
